A study of Rattus norvegicus with 2 samples.

Results

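Early lymphoid transcription factors are DNA-binding proteins, and inhibitors of such proteins, that act in progenitors and immature stages of lymphocytes. Their transcripts were examined in 2 populations of rat splenic natural killer (NK) cells. The 10 factors were Tcf7, Lef1, Sox4, Myb, Id3, Gfi1, Ikzf1, Ikzf2, Runx1 and Ets1. They were taken by symbol, as every probe set whose only platform gene symbol was one of these names. This gave 18 of the 31042 non-control probe sets of the array, for 9 of the 10 genes, out of 14217 genes named by a probe set with a single symbol. Sox4 had 7 probe sets, Lef1, Gfi1 and Runx1 had 2 each, and Tcf7, Myb, Id3, Ikzf2 and Ets1 had 1 each. No probe set carried the symbol Ikzf1, which encodes Ikaros, so that gene is not analysed here. The 10 genes were chosen with earlier results of these arrays known, so their directions are described and nothing is tested on them.

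The cells came from spleens of PVG.7b rats aged 8 to 12 weeks, 9 animals in all, untreated as far as the labels say. They were depleted of T cells, B cells and macrophages with antibodies and sorted as CD3-negative cells that carry the NK receptor NKR-P1A, with purity above 90%. The first population was positive for NKR-P1B, an inhibitory lectin-like receptor, and negative for Ly49s3, while the second was positive for the activating receptor Ly49s3 and negative for NKR-P1B. Each population was hybridised to 1 Affymetrix rat array, and whether RNA of several rats was pooled is not stated in the sources used here. With 1 array per population there is no replicate, no test between the populations is possible, and each value below describes these 2 arrays. The number of arrays limits the precision. A lower signal from a bulk sort can come from fewer cells with the transcript or from less transcript per cell, and these cannot be told apart here.

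Development of NK cells from lymphoid progenitors needs several of these factors in the mouse. TCF-1, encoded by Tcf7, and its relative LEF-1 bind DNA through a high mobility group (HMG) box and can recruit beta-catenin, the end point of Wnt signals, or Groucho/TLE co-repressors. ID3 lacks a DNA-binding domain and holds E proteins away from DNA, GFI1 represses genes through the demethylase LSD1, and RUNX proteins bind DNA together with CBF-beta. Helios, encoded by Ikzf2, is a zinc-finger relative of Ikaros.

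Signals are given in arbitrary units on the deposited scale, where the median of all probe sets was 19.6 in NKR-P1B+ cells and 21.3 in Ly49s3+ cells. A signal at or below 20.4, the 50th percentile of the non-control signals of both arrays pooled, was set to that floor before a ratio was taken. A probe set is called measured if it exceeded the floor on at least 1 array. The log2 difference is NKR-P1B+ minus Ly49s3+. NK identity of both sorts was checked on 12 marker genes with a probe set, all of them measured. The transcript of the sorted receptor, Klrb1b, had 1399 in NKR-P1B+ cells and 29.4 in Ly49s3+ cells, and Klrb1a, which encodes NKR-P1A, had 3740 and 3813 in the same order of populations. Gzmm, which had the highest mean log2 signal of the NK markers, had 3922 in NKR-P1B+ cells and 3901 in Ly49s3+ cells. Of the 12, Gzmb was higher in NKR-P1B+ cells (1.56-fold) and Fcgr3a in Ly49s3+ cells (1.63-fold), and the others were within 1.5-fold. Among all measured genes, 5.11% were at least 1.5-fold higher in NKR-P1B+ cells and 5.73% in Ly49s3+ cells, so the markers were not unusually even. The 18 probe sets for bacterial and phage hybridisation controls had a median log2 difference of 0.008, with a range from −0.14 to 0.22.

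Of the 18 probe sets of the factors, 14 were measured, 10 of them above the floor on both arrays. At least 1.5-fold apart were 2 probe sets that were higher in NKR-P1B+ cells, both of Runx1, and 8 that were higher in Ly49s3+ cells, from Lef1, Sox4, Myb, Id3, Gfi1 and Ikzf2. Among all 16465 measured probe sets, 4.95% were at least 1.5-fold higher in NKR-P1B+ cells and 6.38% in Ly49s3+ cells. The median log2 difference was −0.63 over the 14 probe sets of the factors and −0.03 over all measured probe sets, whose SD was 0.42. At a 2-fold threshold 1 probe set of the factors was higher in NKR-P1B+ cells and 3 in Ly49s3+ cells, against 1.59% and 1.21% of all measured probe sets on those arrays. Counted by gene, with the probe set of highest mean signal for each, 1 of 9 factors was at least 1.5-fold higher in NKR-P1B+ cells and 6 in Ly49s3+ cells, against 5.11% and 5.73% of all 9114 measured genes. Tcf7 and Ets1 were within 1.5-fold.

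**Figure D1:**
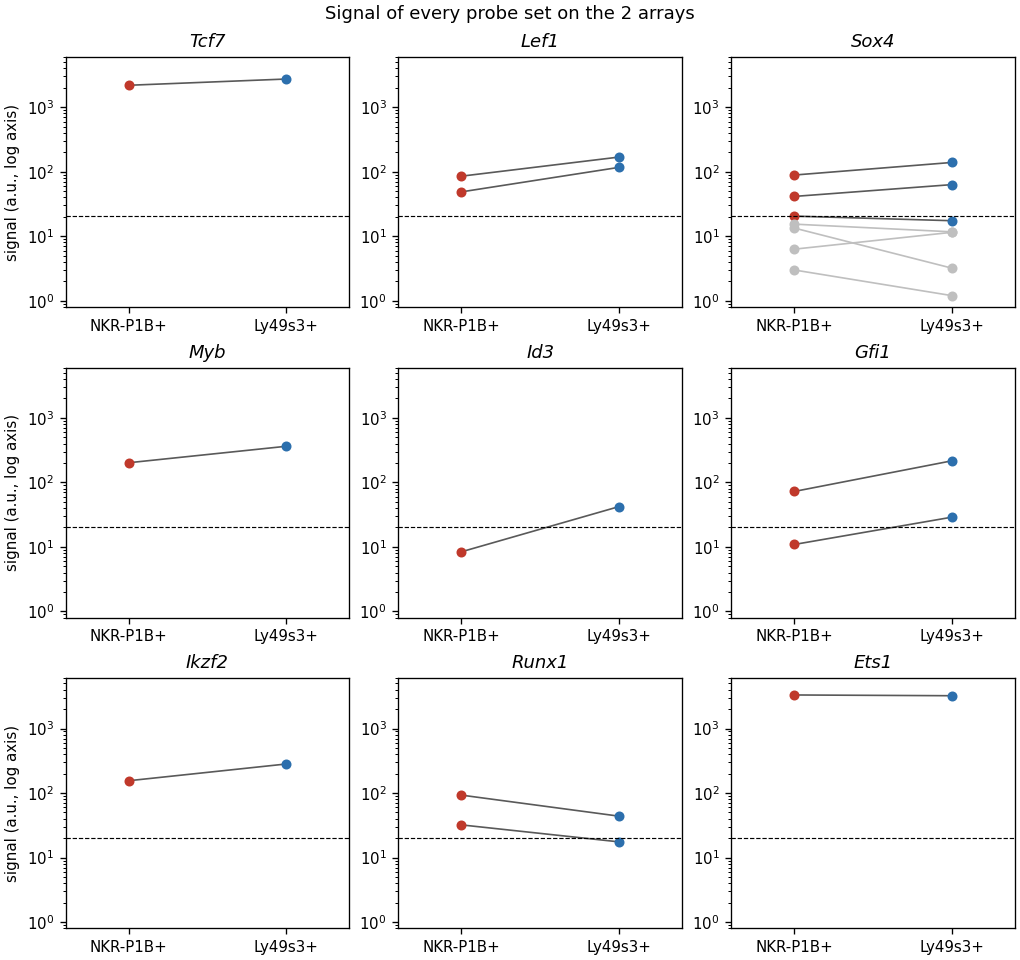
Signal (arbitrary units, log axis) of each of the 18 probe sets in NKR-P1B+ cells (left, red) and Ly49s3+ cells (right, blue), 1 panel per gene, with a line joining the values of a probe set. The dashed line is the floor of 20.4, and grey points are the 4 Sox4 probe sets below it on both arrays. Lines climb to the right for Lef1, Myb, Id3, Gfi1 and Ikzf2, fall to the right for Runx1, and run in both directions for Sox4.

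A further measure of error came from probe sets of the same gene, which share RNA, sort and array and so leave out variation between rats, sorts and arrays. Their spread (SD per probe set, from the disagreement of pairs in log2 difference, binned by the dimmer of the pair) was 0.34 for mean signals below 50, 0.269 from 50 to 150, 0.195 from 150 to 500 and 0.149 at 500 or more. The share of probe sets past 1.5-fold also depended on signal. Below 50 it was 6.51% toward NKR-P1B+ cells and 10.7% toward Ly49s3+ cells, and from 50 to 150 it was 5.45% and 6.47% in the same order. From 150 to 500 it was 3.13% and 3.1%, and at 500 or more 3.06% and 1.31%.

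Among the HMG-box factors Lef1 differed most. Its probe sets 1383785_at and 1370138_at had signals of 85.3 and 48.7 in NKR-P1B+ cells, against 168.8 and 116.9 in Ly49s3+ cells. Both were thus higher in Ly49s3+ cells, by 1.98-fold and 2.40-fold, or log2 differences of −0.98 and −1.26. The 2 differences were 0.28 apart, and 57.6% of same-gene pairs in that signal range disagreed by no more than this. Tcf7, the closest relative of Lef1 among the factors, had on 1376197_at a signal of 2187 in NKR-P1B+ cells and 2734 in Ly49s3+ cells. That is a 1.25-fold difference, or −0.32 on the log2 scale, which is 2.16 times the spread of same-gene probe sets at that signal but did not reach 1.5-fold. Scaling the arrays to the poly-A spikes, described below, turned the Tcf7 value to 0.21, while both Lef1 values stayed negative.

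Sox4, an HMG-box factor of the SOX family that is active in lymphoid progenitors, had 3 measured probe sets. The brightest, 1383137_at, had 88.8 in NKR-P1B+ cells and 139.2 in Ly49s3+ cells, and the second, 1373860_at, 41.4 and 63.1 in the same order of populations. These 2 probe sets were 1.57-fold and 1.52-fold higher in Ly49s3+ cells, with log2 differences of −0.65 and −0.61. The third, 1384000_at, exceeded the floor narrowly in NKR-P1B+ cells, at 20.5 against 17.4 in Ly49s3+ cells, and had a log2 difference of 0.01. The floor fixes the sign of this value, so it gives no direction. The remaining 4 lay below the floor on both arrays, with signals from 3.0 to 15.4 in NKR-P1B+ cells and from 1.2 to 11.7 in Ly49s3+ cells. The Sox4 difference therefore rests on 2 of 7 probe sets, both close to the 1.5-fold threshold. The second was within 1.5-fold after quantile normalisation (−0.55) and after subtraction of a loess trend (−0.54), and it had −0.26 with the floor at the 65th percentile. Both were within 1.5-fold with log2 of the value plus 32, at −0.50 and −0.37, and after scaling to the poly-A spikes, at −0.12 and −0.08. The third differed from them by 0.66 and 0.62, and 84.7% and 82.3% of same-gene pairs below a signal of 50 disagreed by no more than that.

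Myb encodes c-Myb, which maintains proliferating blood progenitors. It had on 1391878_at a signal of 201.6 in NKR-P1B+ cells and 362.9 in Ly49s3+ cells, 1.80-fold higher in Ly49s3+ cells with a log2 difference of −0.85. Ikzf2, which encodes Helios, had on 1381003_at a signal of 155.2 in NKR-P1B+ cells and 282.3 in Ly49s3+ cells, 1.82-fold higher in Ly49s3+ cells with a log2 difference of −0.86. The differences of Myb and Ikzf2 were 4.35 and 4.43 times the same-gene spread at their signals, where 3.1% of all probe sets were 1.5-fold higher in Ly49s3+ cells. Each of these 2 genes has 1 probe set, so no second reading exists.

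Gfi1 had the largest log2 difference among the factors above the floor on both arrays. Its brighter probe set, 1369411_at, had 72.3 in NKR-P1B+ cells and 216 in Ly49s3+ cells, 2.99-fold higher in Ly49s3+ cells. Its other probe set, 1380421_s_at, had 10.9 in NKR-P1B+ cells, below the floor, and 28.9 in Ly49s3+ cells, at least 1.42-fold higher in Ly49s3+ cells. The sign of that bound is fixed by the array on which the probe set exceeded the floor. The log2 differences of −1.58 and −0.50 were 1.08 apart, and 96.6% of same-gene pairs below a signal of 50 disagreed by no more. The value of −0.50 is limited by the floor and was −1.41 with the floor at the 35th percentile. Its name carries the platform's mark for probe sets that can match several transcripts.

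Id3 had on 1387769_a_at a signal of 8.4 in NKR-P1B+ cells, below the floor, and 42.2 in Ly49s3+ cells. It was at least 2.07-fold higher in Ly49s3+ cells, a log2 bound of −1.05, on its single probe set. The bound moves with the floor and was −2.14 with the floor at the 35th percentile, whereas with the floor at the 65th percentile Id3 was not measured. Of all probe sets with a mean signal below 50, 10.7% were at least 1.5-fold higher in Ly49s3+ cells, the largest such share of the 4 signal ranges.

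Runx1 ran in the other direction on its brighter probe set, and the sign of the dimmer one is fixed by the floor. The brighter, 1368914_at, had 92.9 in NKR-P1B+ cells and 43.8 in Ly49s3+ cells, 2.12-fold higher in NKR-P1B+ cells with a log2 difference of 1.08. The other, 1395442_at, had 32.1 in NKR-P1B+ cells and 17.5, below the floor, in Ly49s3+ cells, at least 1.57-fold higher in NKR-P1B+ cells with a log2 bound of 0.65. The 2 values were 0.43 apart, and 66.6% of same-gene pairs below a signal of 50 disagreed by no more. With log2 of the value plus 32 the dimmer probe set had 0.37, within 1.5-fold. Ets1, an ETS-domain activator that mouse NK cells need to develop, had on 1368851_at a signal of 3314 in NKR-P1B+ cells and 3225 in Ly49s3+ cells. Its log2 difference of 0.04 was below the same-gene spread of 0.149.

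**Figure D2:**
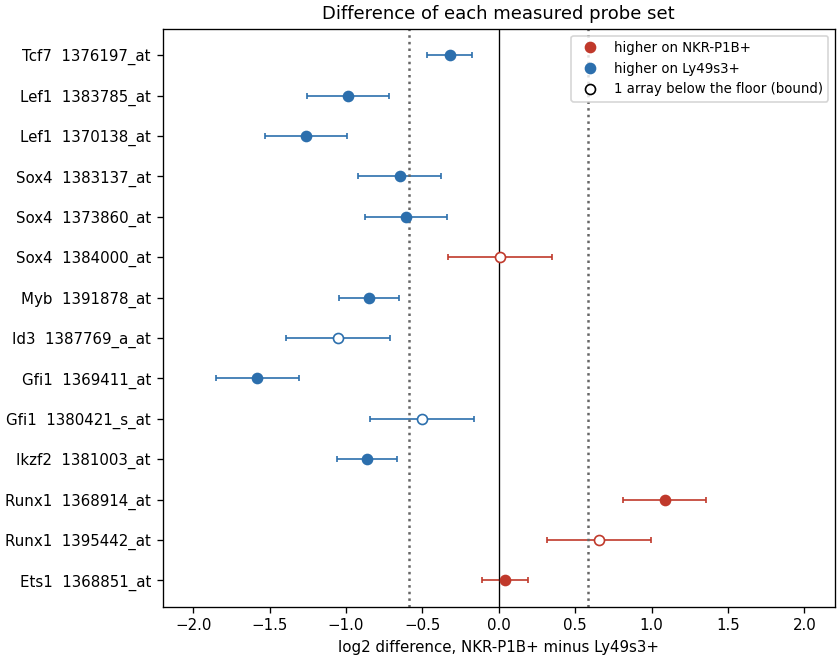
Log2 difference (NKR-P1B+ minus Ly49s3+, horizontal axis) of the 14 measured probe sets, with bars for the same-gene spread at that signal. Open points are bounds with 1 array below the floor, dotted lines mark 1.5-fold, and red and blue mark probe sets higher in NKR-P1B+ and in Ly49s3+ cells. The 8 blue points at or beyond the left dotted line come from 6 genes, and the 2 red points beyond the right one are both Runx1.

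In the 4 genes with several measured probe sets, only Lef1 had all of them above the floor on both arrays, and they kept 1 direction. In Gfi1 and Runx1 the dimmer probe set was above the floor on 1 array only. That fixes the sign of its bound, so its direction is no independent second reading. The same holds for the third probe set of Sox4, whose brighter 2 were higher in Ly49s3+ cells. In each of Lef1, Gfi1 and Runx1 one probe set is paired by the platform annotation with a RefSeq mRNA record, with differences of −1.26, −1.58 and 1.08. For Gfi1 and Runx1 it was the brighter one, and the value of the other is a bound set by the floor. For Lef1 it was the dimmer one. Signal toward the 5' end of the control transcripts was reduced on both arrays, with 3' to 5' ratios for actin of 11.9 in NKR-P1B+ cells and 13.2 in Ly49s3+ cells, and for Gapdh of 2.84 and 2.77 in the same order of populations. The part this has in disagreement between probe sets was not tested.

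**Figure D3:**
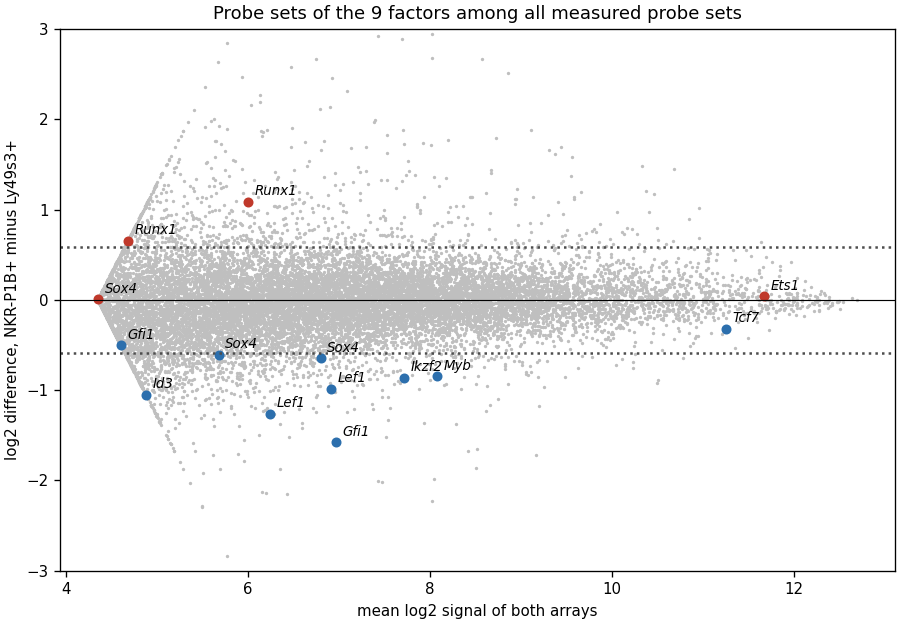
Log2 difference (NKR-P1B+ minus Ly49s3+, vertical axis) against mean log2 signal of both arrays for all 16465 measured probe sets (grey), with those of the factors in red (above 0) and blue (below 0). Dotted lines mark 1.5-fold, 10 grey points lie outside the vertical axis, and the straight edges at low signal are values set to the floor. Gfi1, Lef1, Ikzf2 and Myb lie below most grey points of their signal, and Tcf7 and Ets1 lie inside the dotted lines at high signal.

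Upstream sequence is shown for the factor that ran toward NKR-P1B+ cells and for the one that was above the floor in Ly49s3+ cells only. Both come from RefSeq's table for the GRCr8 assembly, are written 5' to 3' on the gene's strand, and carry in capitals the letters of any of 8 searched motifs. The Runx1 window, chr11:45421326-45421575 on the minus strand, holds the 250 bases before the table's start, which lies inside the RefSeq extent of the gene. The Id3 window, chr5:153656041-153656252 on the plus strand, holds 212 bases and ends where the RefSeq extent of the gene begins.
Runx1: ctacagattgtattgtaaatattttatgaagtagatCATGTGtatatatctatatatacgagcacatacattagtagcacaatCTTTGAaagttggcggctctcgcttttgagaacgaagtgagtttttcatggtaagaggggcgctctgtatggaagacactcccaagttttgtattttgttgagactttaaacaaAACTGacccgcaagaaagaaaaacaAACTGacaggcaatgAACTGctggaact
Id3: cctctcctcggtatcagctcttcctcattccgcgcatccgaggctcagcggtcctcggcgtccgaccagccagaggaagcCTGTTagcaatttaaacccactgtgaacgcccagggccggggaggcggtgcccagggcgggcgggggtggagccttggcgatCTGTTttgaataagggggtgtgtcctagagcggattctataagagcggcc

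The motifs were searched on both strands as CTTTGA for TCF/LEF, ACAAAG for SOX, TGTGGT for RUNX, TGGGAA for Ikaros, CCGGAA for ETS, AACNG for MYB, AATCAC for GFI1 and CANNTG for E-box proteins. Some can overlap, and the TCF/LEF and SOX letters share the core CTTTG on one strand. The Runx1 window held 1 TCF/LEF match, 167 bases before the start, along with 3 MYB matches and 1 E-box match. The Id3 window held 2 MYB matches and no other. Windows of 250 bases were at hand for 7 of the factors, namely Tcf7, Lef1, Id3, Gfi1, Ikzf1, Ikzf2 and Runx1. TCF/LEF letters stood in 1 of these 7, against 13.9% of all 33469 windows of that length, and SOX letters in 1 of 7, that of Ikzf1, against 16.3%. MYB letters stood in 6 of 7 against 75.2%, and E-box letters in 3 of 7 against 65.5%. No window of the 7 held the RUNX, Ikaros, ETS or GFI1 letters, which 14.5%, 22.1%, 12.6% and 9.41% of all windows held. A match is a run of letters and not a measured binding site, and no match says only that these letters are missing from this window.

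Relatives and partners of the factors were examined from lists, with the factors themselves left out and 1 probe set per gene. Of all measured genes, 5.11% were at least 1.5-fold higher in NKR-P1B+ cells and 5.73% in Ly49s3+ cells. Of 14 measured HMG-box and Wnt pathway genes, 1 was at least 1.5-fold higher in NKR-P1B+ cells and none in Ly49s3+ cells, with a median log2 difference of 0.17 against −0.02 over all measured genes. That gene was Tle5, a short Groucho-family protein, with 55.9 in NKR-P1B+ cells and 31.6 in Ly49s3+ cells (1.77-fold). Ctnnb1, which encodes beta-catenin, had 2220 in NKR-P1B+ cells and 2090 in Ly49s3+ cells. The co-repressor gene Tle4 had 487 in NKR-P1B+ cells and 589 in Ly49s3+ cells, a log2 difference of −0.27. Axin2, a target of beta-catenin and TCF in many tissues, was below the floor on both arrays, at 13.8 in NKR-P1B+ cells and 11.8 in Ly49s3+ cells. After scaling to the poly-A spikes, 10 of 15 measured genes of this list were at least 1.5-fold higher in NKR-P1B+ cells. The list median was then 0.66. Of all measured probe sets, which this scaling shifted, 35.6% were past 1.5-fold in that direction, with a median of 0.47. That share is over probe sets, whereas the lists here and below count 1 probe set per gene. No share by gene was computed on this scale.

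Of 8 genes with a probe set in the list of Id and E proteins, which also held Lyl1 and Tal1, 3 were measured. Id2, the Id protein that NK cells of the mouse require, had 1567 in NKR-P1B+ cells and 912 in Ly49s3+ cells, 1.72-fold higher in NKR-P1B+ cells, opposite to Id3. The E protein gene Tcf4 also ran that way, with 112.5 in NKR-P1B+ cells and 63.1 in Ly49s3+ cells (1.78-fold). Tcf12, which encodes the E protein HEB, had 995 in NKR-P1B+ cells and 1228 in Ly49s3+ cells and was within 1.5-fold. Id1 and Tcf3 were below the floor on both arrays.

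None of the 5 measured partners of Gfi1, the 6 Ikaros relatives and partners, or the 4 Runx relatives and partners was 1.5-fold apart, with medians of 0.13, −0.13 and −0.10. Among all measured genes, 5.11% were at least 1.5-fold higher in NKR-P1B+ cells and 5.73% in Ly49s3+ cells, so lists this short would hold few such genes. Kdm1a, which encodes LSD1, had 357.5 in NKR-P1B+ cells and 405 in Ly49s3+ cells, and Hdac2, a deacetylase of the same co-repressor complexes, had 694 and 623. The Ikaros relative Ikzf5 had 321.5 in NKR-P1B+ cells and 362 in Ly49s3+ cells, and the chromatin remodeller gene Chd4 had 249.9 and 239. Runx3, the RUNX gene of mature NK and cytotoxic T cells, had 1944 in NKR-P1B+ cells and 2221 in Ly49s3+ cells, a log2 difference of −0.19 and opposite in sign to Runx1. Cbfb, the DNA-binding partner of both, had 1622 in NKR-P1B+ cells and 1778 in Ly49s3+ cells. Of 11 measured ETS genes other than Ets1, only Etv5 was 1.5-fold apart, with 20.7 in NKR-P1B+ cells and 31.9 in Ly49s3+ cells (1.54-fold), and it was within 1.5-fold after quantile normalisation or subtraction of a loess trend. The brightest of them, Fli1 and Etv3, had 1209 and 956 in NKR-P1B+ cells, against 1134 and 967 in Ly49s3+ cells. The Myb relatives Mybl2, at 27.9 and 36.4, and Mybl1, at 26.1 and 31.4 on the NKR-P1B+ and the Ly49s3+ array, were within 1.5-fold. After scaling to the poly-A spikes the medians of the Ikaros, Runx, ETS and Myb lists were 0.40, 0.43, 0.40 and 0.21. Their negative sign on the deposited scale did not hold on this one. All measured probe sets then had a median of 0.47, and the medians of these lists lay below it. The scaling multiplies each array by a constant, so this restates the deposited scale, where these medians also lay below that of all measured probe sets. The same scaling put 3 of 5 Gfi1 partners and 2 of 6 Ikaros genes at least 1.5-fold higher in NKR-P1B+ cells. It did so for 1 of 4 Runx genes and 3 of 11 ETS genes. None of these lists had such a gene in Ly49s3+ cells. Of all measured probe sets, 35.6% were past 1.5-fold toward NKR-P1B+ cells on that scale and 1.01% toward Ly49s3+ cells.

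**Figure D4:**
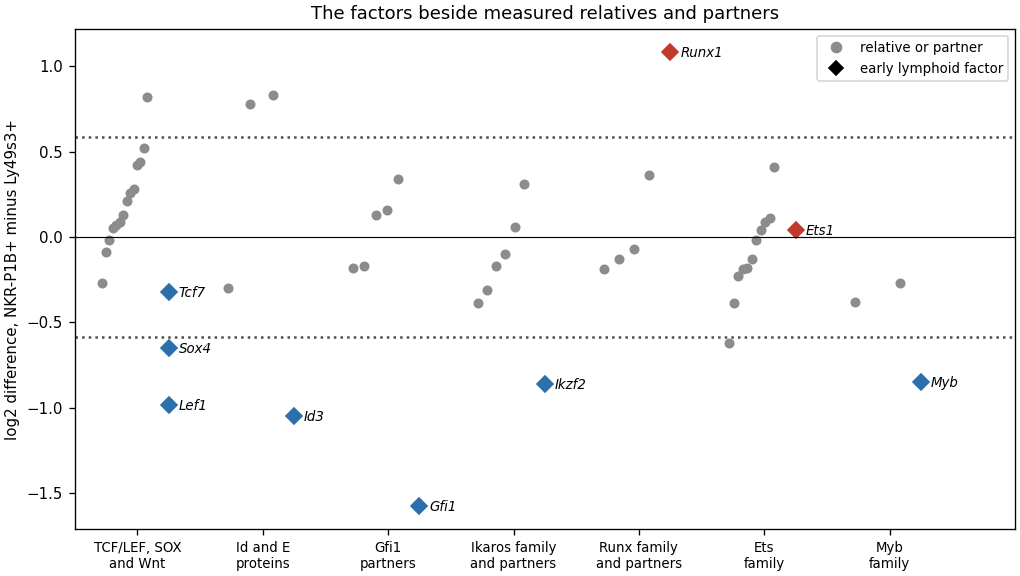
Log2 difference (NKR-P1B+ minus Ly49s3+, vertical axis) of each factor (diamond, brightest probe set) beside the measured genes of its list (grey circles, sorted by value within a list). Red and blue diamonds are higher in NKR-P1B+ and in Ly49s3+ cells, and dotted lines mark 1.5-fold. Of the grey circles, Tle5, Id2 and Tcf4 lie above the upper dotted line and Etv5 below the lower one.

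Of 19 other measured factors of NK development and maturation, 3 were at least 1.5-fold higher in NKR-P1B+ cells and none in Ly49s3+ cells. The shares of all measured genes were 5.11% and 5.73%, and the median of the list was 0.10. Scaling to the poly-A spikes gave 11 in NKR-P1B+ cells, against 35.6% of all measured probe sets, and 0 in Ly49s3+ cells. Quantile normalisation gave 3 and 1. The 3 were the nuclear receptor gene Rora (1252 in NKR-P1B+ cells, 388 in Ly49s3+ cells, 3.23-fold), Maf (68.4 and 34.7, 1.97-fold) and the Notch target Hes1 (154 and 85.1, 1.81-fold). Eomes, which encodes a T-box factor of NK cells, had 1237 in NKR-P1B+ cells and 1821 in Ly49s3+ cells, just within 1.5-fold at 1.47. Zeb1 and Nfil3 lay on the same side, with log2 differences of −0.53 and −0.56, while Bcl11b lay on the other, at 0.57. Of the 19, 11 had a positive and 8 a negative sign. The brightest genes of the list, Klf6 and Irf8, had 0.29 and −0.09. Of the surface and receptor genes of early mouse NK cells, 4 of the 6 that were measured lay at least 1.5-fold higher in NKR-P1B+ cells and none in Ly49s3+ cells. They were Tnfsf10 (441 in NKR-P1B+ cells, 132.5 in Ly49s3+ cells), Emb (2717 and 994), Ltb (2020 and 874) and Cd24 (737 and 408). Il7r had 181 in NKR-P1B+ cells and 225 in Ly49s3+ cells, a log2 difference of −0.31, and Kit and Flt3 were below the floor on both. Genes of late mouse NK cells passed 1.5-fold toward NKR-P1B+ cells in 3 of 9 measured cases, Cd93 (6.37-fold), S100a4 (3.09-fold) and Gzmb (1.56-fold), with a median of 0.25, and Prf1, which encodes perforin, had 4024 in NKR-P1B+ cells and 3006 in Ly49s3+ cells. With the poly-A scaling the counts toward NKR-P1B+ cells were 5 of 6 early and 8 of 9 late genes. The share of all measured probe sets, counted by probe set and not by gene, was 35.6%.

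Several of the factors are also expressed by T cells, progenitors and dividing cells, so markers of these cells were read beside them. For comparison, 5.11% of all measured genes were at least 1.5-fold higher in NKR-P1B+ cells and 5.73% in Ly49s3+ cells. Of 16 T cell markers with a probe set, 12 were measured, 3 at least 1.5-fold higher in NKR-P1B+ cells (Cd8a, Cd5, Cd6) and 2 in Ly49s3+ cells (Trat1, Cd3g), and the signals of all 16 summed to 6932 in NKR-P1B+ cells and 5651 in Ly49s3+ cells. Cd8a had 2151 in NKR-P1B+ cells and 767 in Ly49s3+ cells, a difference larger than that of the sums. Cd3e, which defines T cells, had 0.7 in NKR-P1B+ cells and 0.9 in Ly49s3+ cells, and Cd3d 1.7 and 19.4, all below the floor. Cd8b had 6.6 in NKR-P1B+ cells and 12.6 in Ly49s3+ cells, also below the floor. Cd3g had 22.3 in NKR-P1B+ cells and 42.9 in Ly49s3+ cells. Cd247 and Cd2, which NK cells also express and whose mean log2 signal was the highest of the list, had 2008 and 1390.0 in NKR-P1B+ cells, against 2229 and 1250.0 in Ly49s3+ cells. Trat1 had 86.2 in NKR-P1B+ cells and 346 in Ly49s3+ cells, 4.02-fold higher in Ly49s3+ cells. Of 10 markers of progenitors and erythroid cells 4 were measured, with a summed signal of 412 in NKR-P1B+ cells and 361 in Ly49s3+ cells, and Hemgn had 50.6 in NKR-P1B+ cells and 131 in Ly49s3+ cells. Epor was at least 1.75-fold higher in Ly49s3+ cells and Hbb was 1.81-fold higher in NKR-P1B+ cells, while Kit, Flt3 and Gata1 were below the floor on both. B cell markers were measured for 4 of 11 genes and summed to 517 in NKR-P1B+ cells and 466.5 in Ly49s3+ cells, with Cd22 and Cd74 at least 1.5-fold higher in NKR-P1B+ cells and Bank1 in Ly49s3+ cells. Macrophage and dendritic cell markers were measured for 2 of 15 genes, Itgax and Lyz2, with summed signals of 2720 in NKR-P1B+ cells and 1958 in Ly49s3+ cells. Lyz2 had 356 in NKR-P1B+ cells and 133 in Ly49s3+ cells, 2.68-fold higher in NKR-P1B+ cells, and Itgax had 2281 and 1716. These other sums also run over every marker with a probe set. No marker of these lists was at exactly 0, and their part in the results was not tested.

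Genes of dividing cells were read in the same way. Of 24 measured, none was at least 1.5-fold higher in NKR-P1B+ cells and 10 were in Ly49s3+ cells. The shares of all measured genes were 5.11% and 5.73%. A negative sign was found in 20 and a positive one in 4, while 54.2% of all measured probe sets were negative. The median was −0.51, and the summed signals were 5754 in NKR-P1B+ cells and 6849 in Ly49s3+ cells. Mki67, which marks cycling cells, had 270 in NKR-P1B+ cells and 449.5 in Ly49s3+ cells. Bub1, a mitotic checkpoint kinase, had 87.4 in NKR-P1B+ cells and 158 in Ly49s3+ cells, the mitotic kinase gene Aurkb had 73 and 129.7, and Kif2c, which encodes a mitotic kinesin, was at least 2.14-fold higher in Ly49s3+ cells. The brightest genes of the list, Pcna and Mcm7, had log2 differences of 0.12 and −0.51. Their part in the differences of Myb, Lef1, Gfi1 and the other factors was not tested. After scaling to the poly-A spikes 4 of the 23 then measured were at least 1.5-fold higher in NKR-P1B+ cells and 1 in Ly49s3+ cells. The shares of all measured probe sets were then 35.6% and 1.01%. The list median was 0.01, against 0.47 for all measured probe sets.

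The poly-A spikes are bacterial transcripts added to the RNA before labelling, and the amount added per array is not stated in the sources used here. Their signal was lower for the NKR-P1B+ array, with a median log2 difference of −0.53 over 17 probe sets. Scaling to them lifted the median over all measured probe sets to 0.47, so directions relative to 0 depend on that choice. Of all measured probe sets, 35.6% were then at least 1.5-fold higher in NKR-P1B+ cells and 1.01% in Ly49s3+ cells. On this scale 5 of the 14 probe sets of the factors were positive and 9 negative, the positive ones being the 2 of Runx1, Ets1, the third of Sox4 and, with its sign changed, Tcf7. At least 1.5-fold apart on this scale were the 2 Runx1 probe sets, higher in NKR-P1B+ cells, and 1370138_at of Lef1, 1369411_at of Gfi1 and Id3, higher in Ly49s3+ cells, while Myb at −0.32 and Ikzf2 at −0.33 were within 1.5-fold. Relative to the shifted median of all probe sets, 11 of the 14 lay below and 3 above, the 3 being both Runx1 probe sets and Ets1. The scaling multiplies each array by a constant. Apart from values set to the floor, positions relative to that median therefore restate the deposited scale and are no second reading. Gfi1 and Lef1 stayed negative on both scales, at −1.05 and −0.24 for Gfi1 and −0.45 and −0.73 for Lef1 after this scaling, and so did Id3, at −0.78.

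**Figure D5:**
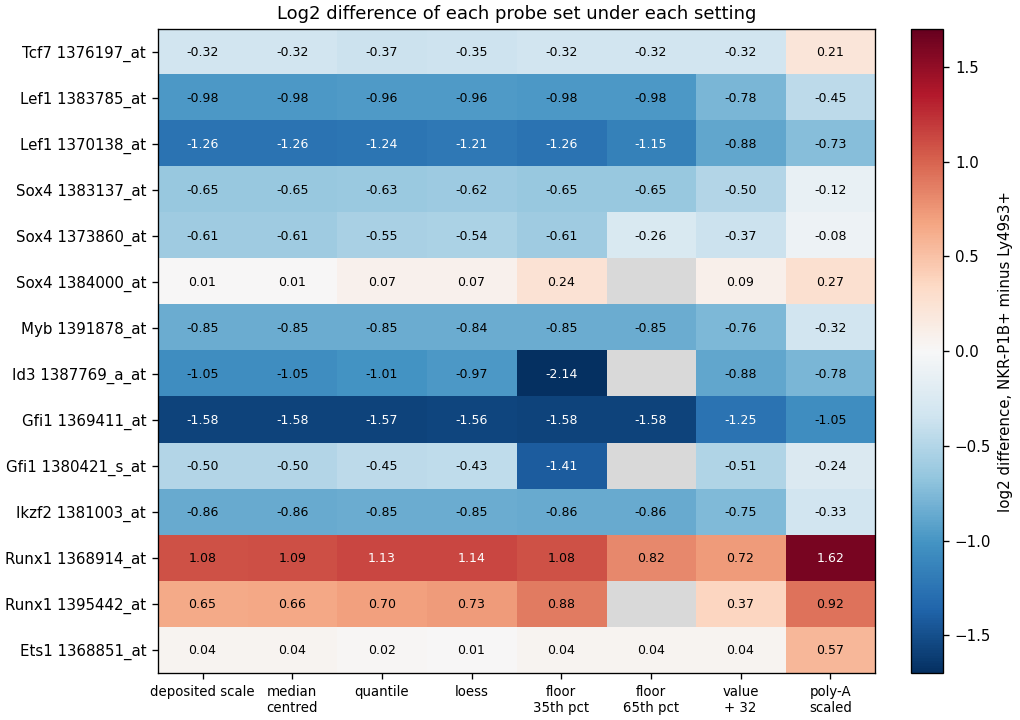
Log2 difference (NKR-P1B+ minus Ly49s3+, colour and printed value) of each measured probe set of the factors (rows) on the deposited scale and under 7 other settings (columns). Grey cells were below the floor on both arrays. Runx1 is positive and Gfi1, Lef1, Myb, Ikzf2 and Id3 are negative in every filled cell, while Tcf7 changes sign in the poly-A column.

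The measured genes nearest to a factor in the plane of both log2 signals were also listed, as a likeness over 2 arrays only. Nearest to the brighter Lef1 probe set was Spc24, with 84.5 in NKR-P1B+ cells and 170 in Ly49s3+ cells, followed by Gigyf2. Nearest to Runx1 was Hps4, with 93.8 in NKR-P1B+ cells and 43.3 in Ly49s3+ cells, followed by Nxpe3. For Myb it was Ppil3 (208 in NKR-P1B+ cells, 340 in Ly49s3+ cells), for Ikzf2 Tent5a (147 and 275), and for Sox4 Trappc5 (89.5 and 141), with Ybx3, Mtss1 and Pygb next in that order. Gfi1 had no such close neighbour, since Gas7, at 88.6 in NKR-P1B+ cells and 209 in Ly49s3+ cells, was 0.297 log2 units away, against 0.019 for Lef1 and Spc24, and Pakap was 0.314 away.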

How the data were processed

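Total RNA of 2 sorted NK populations was measured on 1 Affymetrix array each. The deposited values are linear microarray intensity values per probe set, made with MAS5 per the submitters' processing notes. The scaling target, version and any detection calls were not given in the sources used here. Of 31099 probe sets, 20832 had 1 gene symbol in the platform annotation, 436 had several, none of which named a factor, and 9831 had none. The symbols of the 9 factors with a probe set matched their gene numbers in RefSeq's GRCr8 table.

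Values were floored at 20.4, the 50th percentile of non-control values, and converted to log2 with Python 3.11.15 and pandas 2.3.3. With 1 array per population no p-value was computed. Folds of 1.5 and 2 were counted, and a ratio with one side floored was read as a bound ("at least"). Precision was taken from probe sets of the same gene. The steps were run on simulated arrays, in which all changed probe sets lay above the floor and changed by more than 2-fold. That run does not cover values at the floor or folds near 1.5. The members, gene lists and settings were chosen with earlier results of these data known. Every probe set of a factor was named, and of each list the members at least 1.5-fold apart (up to 3 per direction) and the 2 of highest mean log2 signal were named by rule. Others named outside this rule (Axin2, Id1, Tcf3, Eomes, Zeb1, Nfil3, Bcl11b, Cd3e, Cd3d, Cd8b, Il7r, Cd24, Kit, Flt3, Gata1, Mki67) were chosen after their values were seen. Other settings were median centring, quantile normalisation, subtraction of a loess trend (span 0.3), floors at the 35th and 65th percentiles, log2 of the value plus 32, and scaling to the poly-A spikes. No per-sample column was left unused.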

Additional observations from a re-analysis of the deposited data

How the results depend on the processing

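The counts of 2 probe sets at least 1.5-fold higher in NKR-P1B+ cells and 8 in Ly49s3+ cells, and the median of −0.63, moved by little under median centring, quantile normalisation and the loess trend, with 7 or 8 in Ly49s3+ cells. The floor at the 35th percentile gave 2 and 9 and left 17 probe sets measured. The count toward NKR-P1B+ cells was 1 with the floor at the 65th percentile, with log2 of the value plus 32, over probe sets above the floor on both arrays, and with 1 value per gene by the brightest probe set or by the median of its probe sets. The count toward Ly49s3+ cells was then 6, 6, 7, 6 and 6, and the median −0.75, −0.50, −0.75, −0.85 and −0.85. A 2-fold threshold gave 1 and 3. Scaling to the poly-A spikes gave 2 and 3 with a median of −0.18, while 35.6% and 1.01% of all measured probe sets were past 1.5-fold toward the NKR-P1B+ and the Ly49s3+ array. The cause of the shift of the spikes was not tested. Of 94 single values under other settings, 77 moved by no more than the same-gene spread, 17 moved by more, and 0 of those at least 1.5-fold apart changed sign. Tcf7, within 1.5-fold, turned to 0.21 with the poly-A scaling. With 1 array per population no replicate could be left out. Low signals limit Id3, the dimmer probe sets of Gfi1 and Runx1, and most of Sox4, for which the floor sets the value.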
